A study of Mus musculus with 10 samples.

Results

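The genes that carry cells through the division cycle were followed in cultured mouse embryonic fibroblasts (MEFs), which are connective tissue cells taken from embryos and grown for a few passages. The members were taken by symbol from a deposited table of 52550 genes; all 41 were found there. They fall into 6 genes of G1 and entry into S (Ccnd1, Ccnd2, Ccnd3, Ccne1, Ccne2, E2f1), 13 genes of S phase and replication (Cdc6, Cdt1, Gmnn, Mcm2 to Mcm7, Pcna, Rrm1, Rrm2, Tyms) and 22 genes of G2 and mitosis. The study compared female with male cells, 5 libraries each. Both sexes were C57BL/6 fibroblasts from embryonic day 14, grown in DMEM with fetal bovine serum and used at passage 3, with no treatment, transgene or mutation named. Total RNA depleted of ribosomal RNA was sequenced, so unspliced transcripts were read along with mRNA. The labels leave unstated if each library stands for its own embryo or culture, and p-values therefore measure only the spread between these libraries, which may be technical.

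Cyclins are the regulatory partners of cyclin-dependent kinases. D-type cyclins respond to growth factors in G1 and, together with E-type cyclins, release E2F transcription factors from the retinoblastoma protein. E2F targets then license origins, build the MCM helicase and supply nucleotides for replication. Genes of G2 and mitosis, which include the B-type cyclins, the Aurora and Polo kinases and the spindle checkpoint, are transcribed later, through the DREAM, B-MYB and FOXM1 complexes. Because most of these transcripts are abundant only in dividing cells, their joint level is often read as a proliferation index. In bulk RNA, fewer cycling cells and less RNA per cycling cell cannot be told apart.

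Depth was 35861359 to 45859721 uniquely assigned gene reads per female library and 30662616 to 40664001 per male library. Levels are CPM, a gene's unique reads as a share of its library, scaled to 1000000 reads with TMM factors. Each member had between 191 and 56457 unique reads in a library, and all 41 passed the filter on low counts. Xist and Ddx3y fitted the labelled sex in all 10 libraries. The fibroblast gene Col1a1 was at 5991 to 7629.9 CPM in females and 5863 to 7498 CPM in males. Summed markers of other cells were far lower, at 67.7 to 99.3 CPM in females and 75.4 to 137 CPM in males for epithelium, 103 to 157 CPM in females and 89.0 to 119 CPM in males for endothelium, and 95.2 to 123 CPM in females and 86.2 to 101 CPM in males for germ cells and gonad. Krt19, Flt1, and Sox9 with Fst contributed the most to these sums, while Epcam, Tie1 and Pou5f1 were near 0.

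Female and male fibroblasts carried the cell cycle genes at overlapping levels, and no member passed the test between the sexes. The quasi-likelihood test of edgeR called 0 of 41 members at an adjusted p under 0.05, where 0.0904% of the 16602 tested genes were called and 0.0422% were called on the female side. Ccnd1 was the 1 member with an unadjusted p below 0.05, against 5.55% of all tested genes. DESeq2 and limma-voom also called 0 members, each with 1 member at an unadjusted p under 0.05. In no member did the 2 sexes fail to overlap, as 0.976% of tested genes did. Differences, female minus male, ran from -0.16 on the log2 scale for Ccnd1 to 0.20 for Cdc6, with a median of 0.06 and a median standard error of 0.09.

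The small differences leaned towards females outside G1. Of the members, 33 of 41 were nominally higher in females, as 52.1% of all tested genes were. By class, the nominally higher members in females were 1 of 6 for G1, 12 of 13 for S and 20 of 22 for G2 and mitosis, with median differences of -0.03, 0.07 and 0.06 on the log2 scale. That lean rested on female library 5, the library with the highest level for 30 of 41 members. Without it, 18 of 41 members were higher in females and the median difference was -0.01. Without male library 1, the lowest library for 23 of 41 members, 27 of 41 were higher in females. Leaving out male library 2 instead gave 26 of 41, with a median of 0.04. Without female library 5 and male library 1 together 10 of 41 were higher in females, with a median of -0.04.

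**Figure D1:**
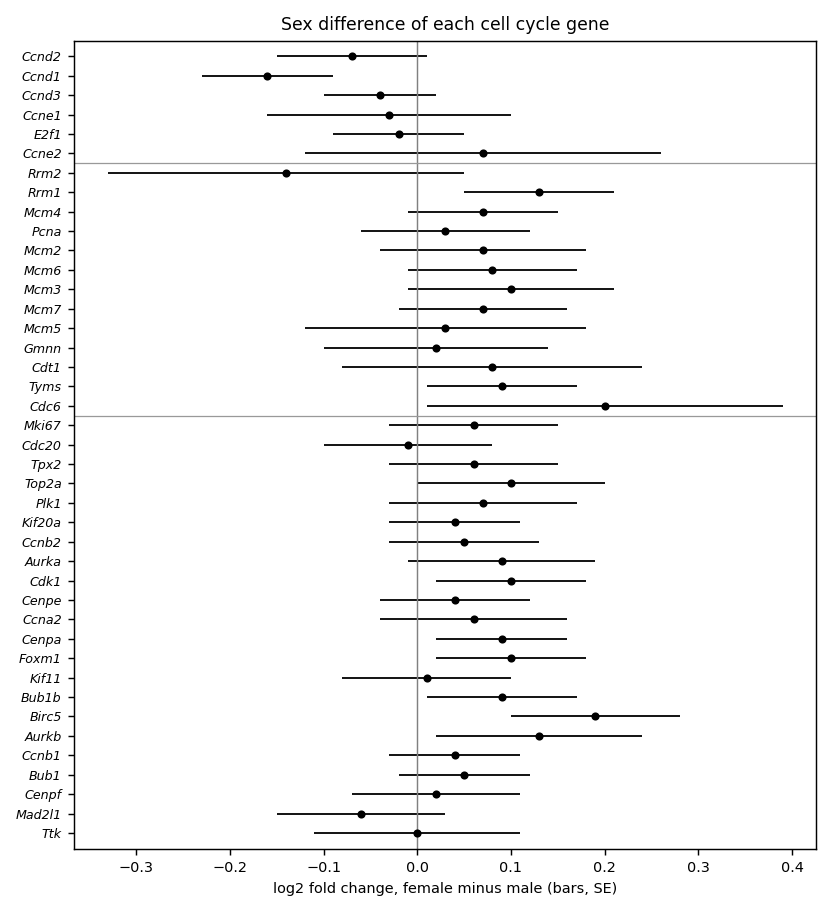
Female minus male difference of each of the 41 members on the log2 scale with its standard error, by class, from the edgeR fit of 5 libraries per sex. The differences lie between -0.16 (Ccnd1) and 0.20 (Cdc6), and 0 of 41 passed an adjusted p under 0.05.

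Among the G1 genes, the D-type cyclins were the most abundant members. RPKM is here unique exon reads per kilobase of exon, scaled to depth. On this scale levels of different genes can be set side by side where most of their reads were unique. Ccnd2 averaged 237 ± 21.1 in females and 247 ± 19.3 in males (SD, n = 5 each). Ccnd1 averaged 54.2 ± 2.95 in females and 60.3 ± 4.0 in males on the same scale, and Ccnd3 averaged 22.6 ± 0.751 in females and 23.0 ± 1.33 in males. The E-type cyclins, which activate CDK2 at the start of S, were lower, Ccne1 at 14.3 and Ccne2 at 4.17 as means of all 10 libraries.

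Cyclin D2 (Ccnd2, chr6:127125162-127152193 on the minus strand, build mm10) was at 1220.2, 1356, 1188, 1341 and 1051 CPM in female libraries 1 to 5, against 1227, 1312, 1334, 1454 and 1115 CPM in male libraries 1 to 5. Library 5 was the lowest of its sex in both, and the sexes overlapped (log2 difference -0.07 ± 0.08 SE, adjusted p = 0.999 in edgeR). Cyclin D1 (Ccnd1, chr7:144929931-144939925, minus strand) was at 200.1, 214, 178, 203 and 182 CPM in females, against 191, 232, 235, 224 and 209 CPM in males. Its 3 highest values were male, but male libraries 1 and 5 lay among the female libraries. The difference of -0.16 ± 0.07 (SE) had an unadjusted p of 0.0348 and an adjusted p of 0.85 in edgeR. With total in place of unique reads the Ccnd1 difference was again -0.16, with an unadjusted p of 0.0569. Unique reads were 56.2% of the reads assigned to Ccnd1, and GENCODE places another gene on the opposite strand across part of it.

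Cyclin E2 (Ccne2, chr4:11191351-11204779, plus strand) varied among libraries more than the D cyclins did. It was at 9.43, 9.12, 12.9, 14.9 and 17.3 CPM in female libraries 1 to 5, against 9.79, 9.21, 13.9, 12.9 and 14.9 CPM in male libraries 1 to 5. In both sexes libraries 1 and 2 were low and libraries 3, 4 and 5 high, so that the sexes overlapped throughout (log2 difference 0.07 ± 0.19 SE, edgeR adjusted p = 0.999). Cyclin E1 behaved much the same, at 23.2 to 37.1 CPM in females and 24.2 to 34.8 CPM in males. E2f1, the transcription factor at the head of the S-phase programme, was steadier, at 30.7 to 36.4 CPM in females and 28.4 to 35.8 CPM in males.

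**Figure D2:**
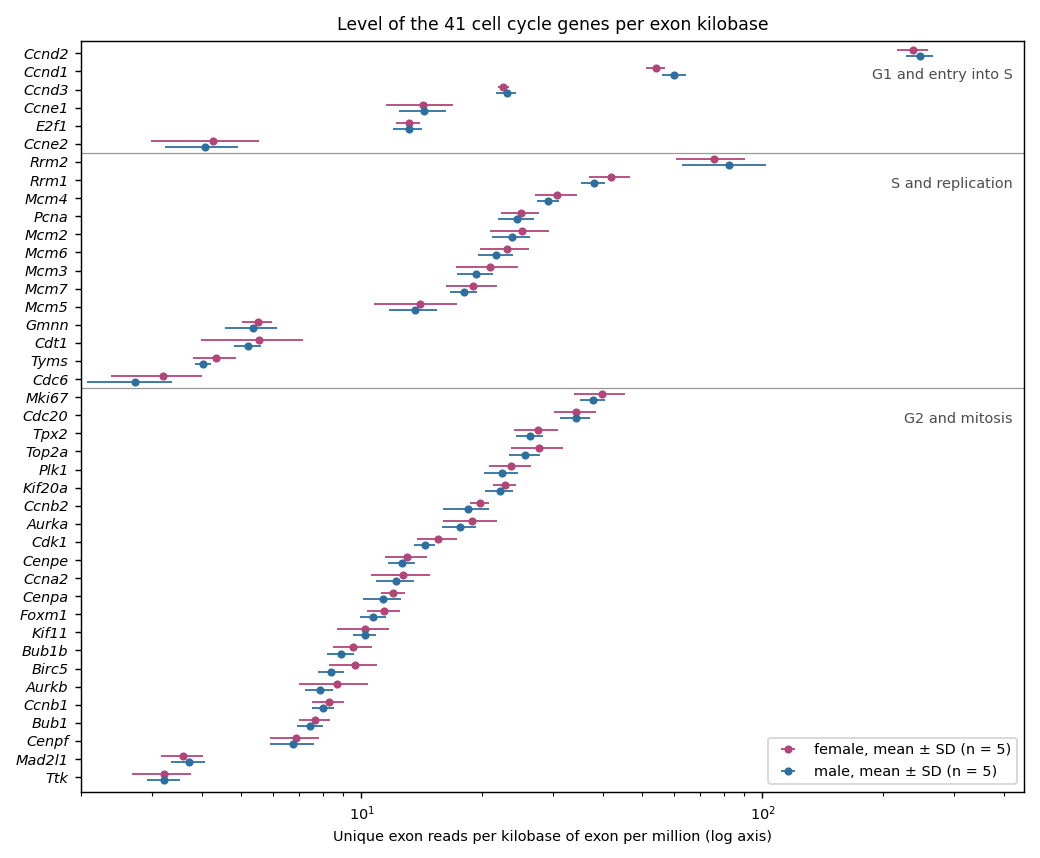
Level of each member in RPKM from unique exon reads (log axis), mean ± SD of 5 female and 5 male libraries, by class. Ccnd2 stands at 242 over all 10 libraries and Cdc6 at 2.95, and the error bars of the sexes lie close to each other in every row.

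The S-phase genes load and fire replication origins or make nucleotides. Rrm2 and Rrm1, the subunits of ribonucleotide reductase, were the most abundant per kilobase on unique reads, at 79.0 and 39.8 over all 10 libraries on the RPKM scale. The MCM helicase genes followed at 13.8 for Mcm5 to 30.0 for Mcm4, with the sliding clamp gene Pcna at 24.7. The CDT1 inhibitor geminin (Gmnn) stood at 5.44, the licensing factor Cdt1 at 5.39, Tyms at 4.18 and the licensing factor Cdc6 lowest at 2.95. Unique reads were 59.9% of the reads assigned to Pcna and 55.6% for Cdt1, against 99.7% for Rrm1 and 99.1% for Gmnn. The places of Pcna and Cdt1 in this order therefore depend on the use of unique reads.

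Rrm2 (chr12:24708241-24714146, plus strand) was at 128, 124, 168, 184 and 181 CPM in female libraries 1 to 5, against 106, 162, 219, 181 and 196 CPM in male libraries 1 to 5. It spanned a 2.07-fold range, its extremes were both male, and the difference of -0.14 ± 0.19 (SE) was the only negative value among the S-phase members. Rrm1 (chr7:102441695-102469771, plus strand) was at 149, 155, 147, 164 and 194 CPM in females, against 132, 138, 145, 159 and 162 CPM in males. Female library 5 was above every other library, while the remaining female libraries lay within or near the male range (log2 difference 0.13 ± 0.08 SE, edgeR adjusted p = 0.986).

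Cdc6, which recruits the MCM helicase to origins, had the widest range of all members, 2.12-fold. It was at 9.92, 10.8, 13.4, 14.2 and 18.5 CPM in females, against 8.71, 8.91, 13.9, 11.8 and 15 CPM in males. Libraries 1 and 2 were again the lowest of each sex and library 5 the highest, and the sex difference of 0.20 ± 0.19 (SE) was about its own error (edgeR adjusted p = 0.999). Mcm5, named after its values were seen, was at 36.6, 38.7, 39.1, 43.3 and 60.7 CPM in females, against 33.7, 37.7, 44.7, 48.5 and 49.7 CPM in males. Here female library 5 stood well clear of the other 9 libraries. All 6 MCM genes had their highest value in female library 5 and their lowest in male library 1. Pcna, Cdt1 and the thymidylate synthase gene Tyms differed between the sexes by 0.03, 0.08 and 0.09 on the log2 scale, with standard errors of 0.09, 0.16 and 0.08. Geminin had another order of libraries. Gmnn was at 7.67, 6.50, 7.6, 6.63 and 7.0 CPM in females, against 5.43, 6.00, 7.17, 8.08 and 8.17 CPM in males.

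In the G2 and mitosis class, Mki67, which coats mitotic chromosomes and is the usual histological mark of cycling cells, was the most abundant per kilobase at 38.7, followed by Cdc20, an activator of the anaphase-promoting complex, at 34.2. The kinetochore kinase gene Ttk was the lowest at 3.22 on the RPKM scale. Mki67 (chr7:135689784-135716361, minus strand) was at 253, 268, 312, 311 and 349 CPM in female libraries 1 to 5, against 259, 273, 306, 323 and 270.3 CPM in male libraries 1 to 5. Both sexes had 2 low libraries, 1 and 2, and male library 5 was low as well (log2 difference 0.06 ± 0.09 SE, edgeR adjusted p = 0.999).

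Birc5, which encodes survivin of the chromosomal passenger complex, came nearest in this class to a sex difference. It was at 23.8, 22.9, 23.4, 24.7 and 31.3 CPM in females, against 20.5, 19.9, 24.0, 23.9 and 22.7 CPM in males. Without female library 5 all values of Birc5 would lie between 19.9 and 24.7 CPM. With it, the difference was 0.19 ± 0.09 (SE), with an unadjusted p of 0.0612 and an adjusted p of 0.918 in edgeR. Ttk was at 12.7, 11.8, 15.5, 15 and 17.9 CPM in females, against 13, 13.1, 15.4, 16.2 and 15.1 CPM in males, a difference of 0.00 ± 0.11 (SE). As for Mki67, the values of Ttk were low in libraries 1 and 2 of both sexes.

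The mitotic kinase genes Aurka, Aurkb and Plk1 differed by 0.09, 0.13 and 0.07 on the log2 scale, with standard errors of 0.10, 0.11 and 0.10. Cdk1, the kinase that starts mitosis, was at 56.2 to 74.4 CPM in females and 55.8 to 67.6 CPM in males. The checkpoint genes Bub1, Bub1b and Mad2l1 differed by 0.05, 0.09 and -0.06, and the centromere genes Cenpa, Cenpe and Cenpf by 0.09, 0.04 and 0.02. Cyclins A2, B1 and B2 (Ccna2, Ccnb1, Ccnb2) differed by 0.06, 0.04 and 0.05, the spindle motor genes Kif11 and Kif20a by 0.01 and 0.04, and Tpx2, which nucleates spindle microtubules, by 0.06. Foxm1, a transcription factor of G2 genes, was at 44.6 to 56.9 CPM in females and 41.5 to 53.5 CPM in males.

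Within each sex, these genes shifted jointly from library to library. For each class an index was taken as the mean, over its members, of the log2 CPM minus that gene's mean over the 10 libraries. The S index was -0.12, -0.13, -0.03, 0.09 and 0.34 in female libraries 1 to 5, against -0.29, -0.14, 0.00, 0.12 and 0.15 in male libraries 1 to 5. The G2 and mitosis index was -0.10, -0.11, 0.01, 0.10 and 0.24 in females, against -0.15, -0.11, 0.04, 0.14 and -0.06 in males. Libraries 1 and 2 were low in both sexes and library 4 high, female library 5 was the highest and male library 1 the lowest on both indices. The labels do not say that equal numbers mark a shared batch. Over all genes, libraries of equal number in the 2 sexes deviated together weakly, at r = 0.0425 to 0.241.

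Between the sexes the indices overlapped. The S index averaged 0.03 ± 0.20 in females and -0.03 ± 0.18 in males, and the G2 and mitosis index 0.03 ± 0.14 in females and -0.03 ± 0.12 in males (SD, n = 5 each). The G1 index averaged -0.02 ± 0.10 in females and 0.02 ± 0.14 in males. Summed over the 41 members, 3797 ± 214 CPM in females stood against 3799 ± 311 CPM in males. The spread between libraries of 1 sex was thus larger than the mean difference between the sexes on every index.

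**Figure D3:**
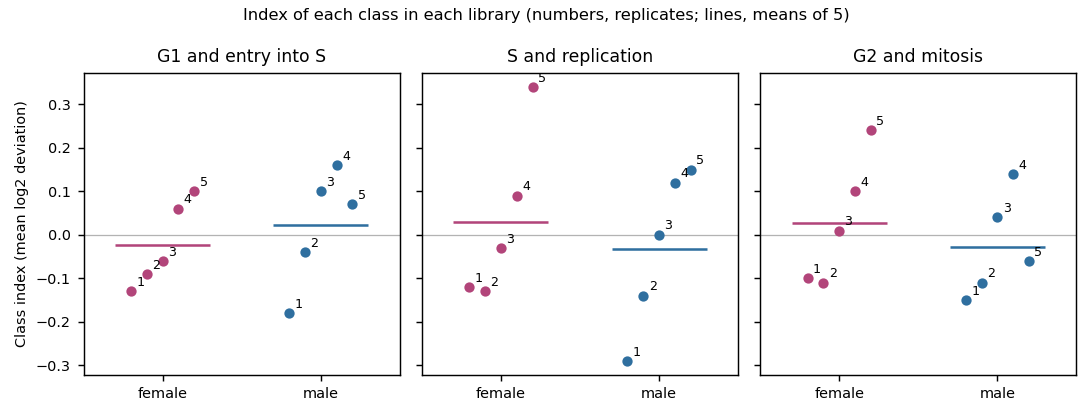
Index of each class in each library (log2, mean over class members of the deviation from the gene's mean over 10 libraries), females left and males right. Points are libraries with their replicate numbers, and lines are means of 5 libraries. Female library 5 is highest for S (0.34) and for G2 and mitosis (0.24), male library 1 lowest for both (-0.29 and -0.15), and the sexes overlap in each class.

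Replication and mitotic genes moved together across libraries, except in male library 5. After centring each sex on its mean, the S and the G2 and mitosis indices correlated at r = 0.86 (Spearman 0.83) over the 10 libraries, which share depth and scaling between both indices. The relation was weaker, r = 0.69 over 8 libraries, without female library 5 and male library 1, the libraries farthest from the median S index. In male library 5 the S index exceeded the G2 and mitosis index by 0.22, while in male library 1 it was lower by 0.14 (a difference of -0.14). In the remaining male libraries this difference lay between -0.04 and -0.02, and in females between -0.04 and 0.11. Male library 5 held the lowest values of Bub1, Bub1b, Ccnb2, Cenpa and Cenpf, beside the highest male values of all but 2 MCM genes.

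The E-type cyclins followed this axis, and of the D-type cyclins Ccnd3 did, but Ccnd1 and Ccnd2 did not. The index of Ccne1 and Ccne2 was -0.25, -0.36, 0.05, 0.15 and 0.44 in female libraries 1 to 5, against -0.28, -0.27, 0.07, 0.18 and 0.27 in male libraries 1 to 5. It ran with the S index at r = 0.95 (Spearman 0.98; 0.95 without female library 5 and male library 1). The index of the 3 D cyclins was -0.05, 0.05, -0.13, 0.04 and -0.13 in females, against -0.10, 0.09, 0.12, 0.18 and -0.07 in males. Its r with the S index was 0.02 (Spearman 0.08; -0.15 without the same libraries). That index averages unlike genes, since r with the S index was 0.58 for Ccnd3, -0.04 for Ccnd1 and -0.35 for Ccnd2. In female library 5, where both E cyclins were at their highest, Ccnd1 (182 CPM) and Ccnd2 (1051 CPM) were below their medians of 206 and 1269 CPM over all libraries, and Ccnd3 (110.3 CPM) was above its median of 108 CPM.

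Taken gene by gene, 36 of 41 members had r above 0.5 with the mean of the other members, with a median of 0.86. Among the other 10380 tested genes with a mean of at least 5 CPM, 21.8% had r above 0.5 with the members' mean, and the median was 0.04. The first principal component held 65.1% of the variance of the members and 25.2% of that of the 10421 tested genes with a mean of at least 5 CPM. Top2a, the topoisomerase that untangles chromatids, followed the other members most closely (r = 0.99). It was at 168, 169, 192, 197 and 233 CPM in females, against 154, 162, 189, 201 and 189 CPM in males, low in libraries 1 and 2 of both sexes and highest in female library 5. The 5 members at or under 0.5 were Ccnd2 (-0.19), Ccnd1 (-0.02), Ccnb2 (0.12), Bub1 (0.26) and Gmnn (0.49).

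**Figure D4:**
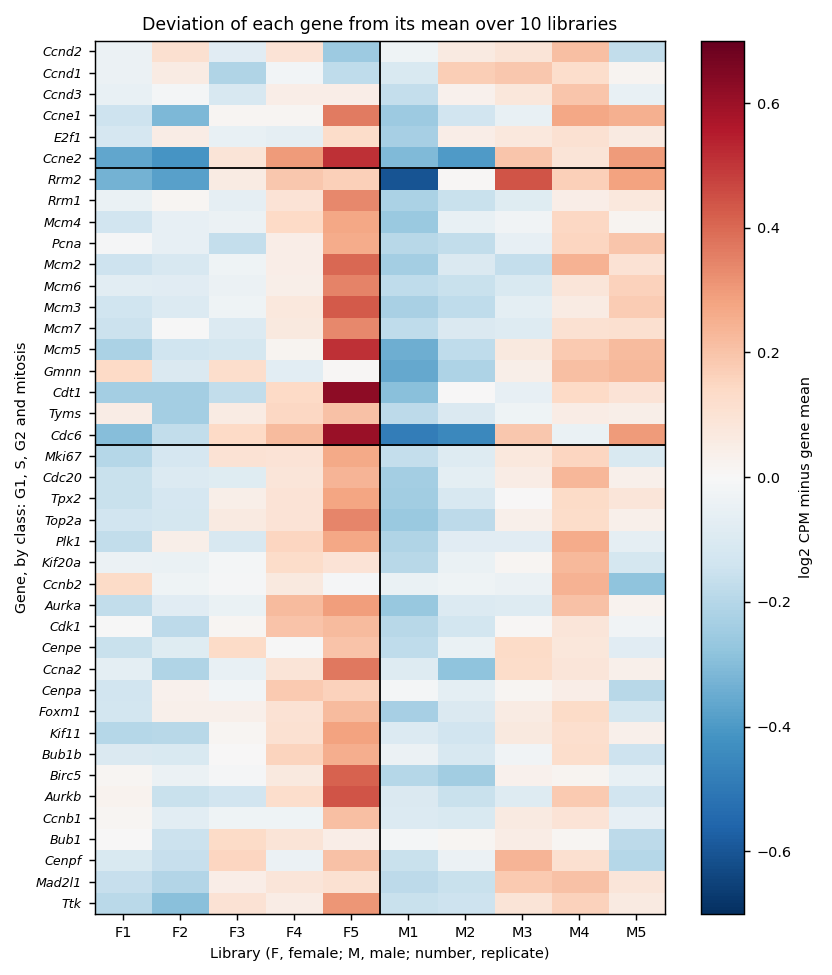
Deviation of each member from its mean over 10 libraries (log2, colour scale) in 5 female libraries on the left and 5 male libraries on the right, with genes in rows by class. Female library 5 is above the gene's median for 38 of 41 members, with Ccnd1 and Ccnd2 among the exceptions, and male library 1 for 0 of 41.

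Within a sex, the standard deviation of log2 CPM had a median of 0.16 over the members and of 0.12 over tested genes with a mean of at least 5 CPM. By class the median was 0.13 for G1, 0.20 for S and 0.16 for G2 and mitosis. The highest library exceeded the lowest by a median factor of 1.43, with Ccnb1 and Bub1 lowest at 1.24 and Cdc6 highest at 2.12. Ccnb1 had 51.1% of its reads assigned uniquely, the lowest share among members, so its level and that of 8 others under 90% depended on how ambiguous reads were treated.

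The start regions of the members are shown as a description. The S and the G2 and mitosis indices moved together (r = 0.86), and a part of the start regions in this was not tested. RefSeq (GRCm38.p6) gave 33 windows, 250 bases before to 50 after the start, for 31 of the 41 genes. These were searched on both strands for the cell cycle homology region element TTTGAA (CHR), which DREAM and B-MYB complexes are known to bind, for CCAAT, the NF-Y box, and for 4 spellings of the E2F element, TTTGGCGC, TTTCCCGC, TTTCGCGC and TTTGCCGC. Of the 17 windows of G2 and mitosis genes, 12 held CHR (70.6%), against 17.9% of all 32851 RefSeq windows, and the same 12 also held CCAAT, against 6.95% of all windows. Among the 12 S-phase windows, 6 held an E2F spelling (50%), against 2.26% of all windows, in Mcm3, Mcm5, Mcm6, Mcm7, Cdc6 and Cdt1. A single S-phase window, that of Mcm2, held CHR, and a single G2 and mitosis window, that of Cdk1, held an E2F spelling. The 4 windows of G1 genes (Ccnd3 with 2, Ccne1 and E2f1) held neither. The windows of E2f1, Cdc6 and Mcm7, and 1 of those of Ccnd3, lay wholly inside the annotated span of their gene. The bases before the outermost annotated start of E2f1, Cdc6 and Mcm7 were therefore not searched. A match is a description of letters in a window and not a bound site.

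Below are 2 windows with CHR and CCAAT and 2 with an E2F spelling, each read on the gene's strand, with matches to any of these elements on either strand in capitals. Cdc20 (chr4:118437294-118437593, minus strand) and Ccnb2 (chr9:70421505-70421804, minus strand) both held CHR and CCAAT. Mcm5 (chr8:75109259-75109558, plus strand) held CCAAT, and apart from it 2 E2F matches on opposite strands that overlap each other. Cdc6 (chr11:98907901-98908200, plus strand) held an E2F match on the minus strand.
Cdc20: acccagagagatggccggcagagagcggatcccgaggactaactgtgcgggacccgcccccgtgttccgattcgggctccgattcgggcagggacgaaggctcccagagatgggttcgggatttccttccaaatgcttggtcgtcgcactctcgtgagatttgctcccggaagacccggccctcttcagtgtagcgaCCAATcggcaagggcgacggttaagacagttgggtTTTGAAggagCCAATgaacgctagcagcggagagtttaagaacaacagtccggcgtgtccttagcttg
Ccnb2: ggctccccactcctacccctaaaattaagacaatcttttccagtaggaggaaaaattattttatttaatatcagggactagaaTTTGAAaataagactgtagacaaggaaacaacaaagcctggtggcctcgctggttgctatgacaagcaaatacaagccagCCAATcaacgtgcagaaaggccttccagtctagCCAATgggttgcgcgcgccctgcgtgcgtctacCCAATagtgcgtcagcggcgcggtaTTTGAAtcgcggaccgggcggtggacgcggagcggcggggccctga
Mcm5: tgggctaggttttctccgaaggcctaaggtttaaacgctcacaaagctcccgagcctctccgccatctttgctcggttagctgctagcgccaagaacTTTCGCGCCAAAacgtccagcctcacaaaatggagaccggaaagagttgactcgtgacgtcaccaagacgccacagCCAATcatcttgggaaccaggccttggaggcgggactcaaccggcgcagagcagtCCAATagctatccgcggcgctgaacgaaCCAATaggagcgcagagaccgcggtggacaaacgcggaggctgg
Cdc6: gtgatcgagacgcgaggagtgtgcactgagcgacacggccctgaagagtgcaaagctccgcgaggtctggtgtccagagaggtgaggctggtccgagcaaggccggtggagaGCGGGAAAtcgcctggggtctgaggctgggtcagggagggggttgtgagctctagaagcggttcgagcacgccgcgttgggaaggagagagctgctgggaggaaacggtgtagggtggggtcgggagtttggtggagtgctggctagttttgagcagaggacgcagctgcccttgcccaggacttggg

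Of the 12 G2 and mitosis genes whose windows held both CHR and CCAAT, Ccnb2 had the lowest r with the mean of the other members, and the rest had r of 0.52 (Cenpa) to 0.99 (Top2a). The first pair printed sets Ccnb2, the lowest of the 12, beside Cdc20, which was near the top. Cdc20 was at 43.3, 45.1, 45.4, 51.2 and 56.9 CPM in females, against 40.9, 46.0, 50.1, 56.6 and 49.5 CPM in males (r = 0.97 with the mean of the other members). Cyclin B2 (Ccnb2) was at 27.1, 24.2, 24.6, 25.9 and 24.6 CPM in females, against 23.9, 24.2, 24.0, 29.3 and 20.3 CPM in males (r = 0.12). Ccnb2 was nearly level in females, where Cdc20 was highest in libraries 4 and 5. Mcm5 and Cdc6, with E2F spellings, ran with the S index at r = 0.98 and 0.88, the gene itself being left out of the index each time. With the G2 and mitosis index their r was 0.85 and 0.77. S-phase genes whose windows held no E2F spelling also ran with the S index, at 0.95 (Rrm1), 0.90 (Mcm2), 0.88 (Pcna), 0.79 (Tyms) and 0.73 (Rrm2). Top2a, a G2 and mitosis gene without such a spelling, did so at 0.96. Cdc20, Ccnb2, Mcm5 and Cdc6 were chosen after their values were seen.

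Lists of other pathway members followed the library pattern to differing degrees. None of the 26 tested genes of the CDK, RB and E2F families, 46 replication genes, 62 mitosis genes and 7 CDK inhibitors passed the edgeR test between the sexes, as 0.0904% of all tested genes did. In that test 4 of the 62 mitosis genes had an unadjusted p under 0.05, near the share of 5.55% over all tested genes. No gene of the other lists did. The centromere gene Cenpm was at 3.01 ± 0.148 CPM in females and 2.32 ± 0.265 CPM in males (SD, n = 5 each; log2 difference 0.37 ± 0.13 SE, edgeR adjusted p = 0.67). Cenph, a kinetochore gene, was at 11.2 ± 0.456 CPM in females and 9.51 ± 0.709 CPM in males (log2 difference 0.24 ± 0.08 SE, edgeR adjusted p = 0.67). The DNA methylation maintenance factor Uhrf1 differed by 0.22 ± 0.11 (adjusted p = 0.946). Of those with a mean of at least 5 CPM, 50 of 58 mitosis genes and 36 of 45 replication genes had r above 0.5 with the G2 and mitosis index, against 1923 of 10380 genes outside the members. Of the CDK, RB and E2F genes 10 of 25 did, with a median r of 0.37 and Cdk7, of the CDK-activating kinase, at -0.86. Of the CDK inhibitors 3 of 7 did, and 2 had r under -0.5. Cdkn2c, a CDK4 and CDK6 inhibitor, ran with the index (r = 0.91), and Cdkn2a, the Ink4a and Arf locus, ran against it (r = -0.75).

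Intron reads, which come largely from transcripts not yet spliced, made up a small part of the members' reads. Pooled over libraries, the median intron share was 5.29% for the 40 members tested, against 20.1% for the 11792 genes tested, and 38 of 40 members lay below that median. The lowest shares were those of Ccnd2 (1.74%) and Mki67 (1.77%), and the highest those of Ttk and Cenpa (20.1% each), Gmnn (16.4%), Tyms (15.4%) and Cdk1 (15%). Cdt1 was listed with 0 intron reads in all 10 libraries and was not tested; GENCODE places another gene over it on the same strand.

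No member passed the test of intron share between the sexes. In an edgeR interaction fit of read type with sex, 0 of 40 members were called, against 0.0339% of the 11792 genes, and 0 were at an unadjusted p under 0.05, against 3.74% of them. The log2 difference of the intron to exon ratio, female minus male, ran from -0.34 (Cdc6) to 0.32 (Foxm1) with a median of -0.01. Foxm1 had 4.13, 4.79, 5.51, 4.95 and 4.47% of its reads in introns in females, against 2.61, 3.91, 2.78, 4.01 and 5.15% in males, and the sexes overlapped (unadjusted p = 0.124 in edgeR). Cdc6 had an intron share of 8.05% ± 1.42 over the 5 female libraries and of 9.79% ± 1.79 over the 5 male libraries (SD), on at most 65 intron reads per library.

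**Figure D5:**
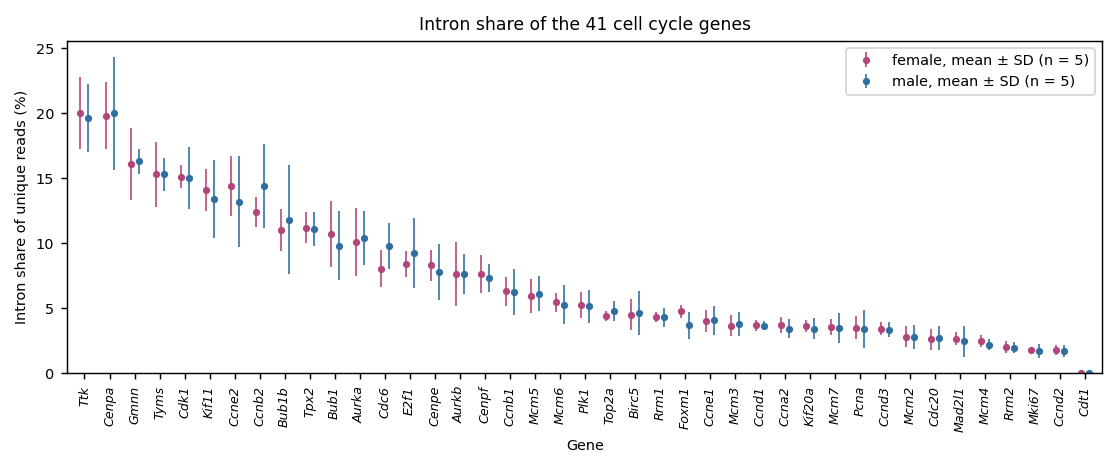
Intron reads as a percent of unique gene reads for each of the 41 members, mean ± SD of 5 female and 5 male libraries, with genes in order of their share. Pooled shares run from 1.74% (Ccnd2) to 20.1% (Ttk, Cenpa), Cdt1 is listed at 0, and the means of the sexes lie close to each other beside that range.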

How the data were processed

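The authors deposited whole-number read counts per gene and library, not normalized, per the file headers, split into total and unique gene, exon, intron and junction reads. Their own test of each gene is given in the deposited table as a signed fold, a p-value and a false discovery rate, per the file headers. Of 41 members, 0 had a p-value under 0.05 in the authors' deposited table. Build mm10 is named, per the submitters' processing notes; the aligner is not given in the sources used here, nor is the strand rule of counting, so reads of overlapping genes (17 members have one) cannot be told apart. The table's other 100 columns of per-library values were not used.

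Unique gene counts were kept by filterByExpr (minimum count 10; 16602 genes), scaled by TMM and fitted with edgeR 4.0.16 in R 4.3.3 (robust quasi-likelihood, sex as the only term, two-sided). Adjustment was Benjamini-Hochberg over every tested gene, with calls at an adjusted p under 0.05. Standard errors are the log2 difference divided by the square root of F. The intron test was an edgeR fit of exon and intron counts with library, read type and their interaction with sex, on genes with at least 10 reads of each type in 5 libraries. Log2 CPM used a prior count of 2. Level per kilobase used the union of exons. Classes, indices and correlations are descriptions without a test. Named members are, per class, the most abundant per kilobase, the smallest p and the widest spread within a sex; others were named after their values were seen. Members and lists were chosen with earlier results of these data known.

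Alternatives were size factors, upper quartile factors, other filters, DESeq2 1.42.0, limma-voom (limma 3.58.1), a replicate block, total, exon, intron or junction reads, and leaving out each library. Counts of no 2 libraries of the same sex agreed within sampling noise. In simulated data the level test recovered 18% of 1.25-fold and 66% of 1.5-fold changes, and 8% of its calls were false. The intron test recovered 64% of 1.5-fold changes, with 2.42% of its calls false. The largest member difference in level was 1.15-fold (Cdc6), so the absence of calls does not exclude differences of that size. The spread between libraries includes counting error; reads carry no molecular identifiers.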

Additional observations from a re-analysis of the deposited data

Results flagged for a closer look

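Within a sex, a library far from the other 4 was found for 11 of the 168 sets of 5 values examined, where chance gives about 8.4. For levels, female library 5 was high for Mcm5 (60.7 CPM, others 36.6 to 43.3), Mcm6 (103 CPM, others 76.4 to 83.2) and Birc5 (31.3 CPM, others 22.9 to 24.7). Male library 4 was high for Aurkb (21.9 CPM, others 17.3 to 18.1) and Plk1 (46.9 CPM, others 33.8 to 37.5), and male library 1 was low for E2f1 (28.4 CPM, others 34.4 to 35.8).

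For the intron share, female library 3 was high for Mcm6 (6.77%, others 4.97 to 5.21%) and Tyms (19.6%, others 13.4 to 15%). Female library 2 was low for Cdk1 (13.5%, others 15.3 to 15.8%), female library 5 high for Ccnb2 (14.4%, others 11.5 to 12.1%) and female library 4 low for Birc5 (2.50%, others 4.60 to 5.44%).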

How the results depend on the processing

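No member was called between the sexes under any of the 22 other settings for the level or the 12 for the intron share. Over all tested genes 15 were called, against 30 without the filter, 72 with DESeq2 and 9 on junction reads, a setting chosen after seeing the data; leaving out 1 library gave 12 to 36 calls (36 without male replicate 1). For the intron share 4 genes were called, and 0 to 4 with 1 library left out. The causes were not tested.

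Over all genes, same-numbered libraries of the 2 sexes deviated together weakly, at r = 0.0425 to 0.241. The closest male library had the same number for female libraries 1, 3 and 5, and another number for 2 and 4. Whether equal numbers mark a shared batch was not tested. With the replicate block 43 genes were called over all, 0 of them members, with 4 members at an unadjusted p under 0.05 (Ccnd1, Cdc6, Rrm1, Birc5) and a smallest adjusted p of 0.401 in edgeR.

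Female library 5 decided the lean of the members: without it 15 of 41 differences changed sign, and the S index difference, female minus male, was -0.02, against 0.06 with it. On intron reads alone 25 of 40 members were higher in females, against 33 of 41 on all gene reads. Depth limits this scale, where Mad2l1 had 13 to 37 reads per library.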

Other observations

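Outside the lists, the genes that ran most closely with the G2 and mitosis index over the 10 libraries, each sex centred on its mean, were Iqgap3, Neurl4, Zfp334 and Utp20 (r = 0.96 each). Ddx18, Scrib, Tcof1 and Aars2 followed at 0.95. Utp20 and Tcof1 act in ribosome production. Those that ran most against it were Cfap157 (-0.95), Fbxl20 and Ctps2 (-0.94 each) and Zfp120, P2rx5 and Ift140 (-0.93 each). Ift140 is a gene of transport in cilia. These values are descriptions, picked as the extremes of 10380 genes.

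The macrophage markers ran with the S index, and with the G2 and mitosis index only when its farthest libraries were included. Their summed level was 44.1 to 113 CPM in females and 54.7 to 82.1 CPM in males, with the highest value in female library 5. Their index ran with the S index at r = 0.67 (0.52 without female library 5 and male library 1). With the G2 and mitosis index r was 0.59 (0.06 without female library 5 and male library 4). Of the 10 macrophage markers tested, 3 had a mean of at least 5 CPM. Fibroblast markers summed to 25996 to 31729.9 CPM in females and 25841 to 31512 CPM in males, and their index ran against the G2 and mitosis index at r = -0.49 (Spearman -0.70; -0.83 without female library 5 and male library 4). The index weights each of the 13 fibroblast markers alike, so it need not follow their sum. Of the 12 with a mean of at least 5 CPM, 0 had r above 0.5 with the G2 and mitosis index and 2 had r under -0.5. The part of other cells in the shift between libraries was not tested. Cdkn2a was at 24.6 to 65.1 CPM in females, lowest in female library 5, and at 38.4 to 56.5 CPM in males.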
